A study of Saccharomyces cerevisiae with 3 samples.

Results

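Small heat shock proteins and general stress proteins were represented by 9 genes of the budding yeast Saccharomyces cerevisiae, namely HSP12, HSP26, HSP42, DDR2, DDR48, SPI1, YGP1, GAD1 and GRE3. They were taken by gene symbol from the probe sets that the platform annotation ties to a single gene. The 9 genes had 10 probe sets among 6504 such probe sets, which covered 5656 genes. DDR48 had 2 probe sets and each other gene had 1. All 9 genes were measured in every culture.

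The samples were 3 independent steady-state chemostat cultures, each hybridized to its own Affymetrix array, and they form 1 group. In a chemostat the feed rate sets the growth rate. Here glucose limited growth at a dilution rate of 0.10 per h, at 30 °C and pH 5.0, with dissolved oxygen above 80% of air saturation, and each litre of feed supplied glucose (7.5 g), ammonium sulphate (5.0 g) and zinc as its sulphate heptahydrate (4.5 mg). The labels name no strain, and cultures under another limitation were not analysed here. With 1 group there was no contrast between conditions and no test, so the values below describe levels on the arrays and the spread between cultures, whose number (n = 3) limits the precision.

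Yeast cells respond to many kinds of stress, and to slow growth on scarce nutrients, with a shared programme of transcription. The zinc finger activators Msn2 and Msn4 drive much of it through the stress response element when protein kinase A activity is low, and the heat shock factor Hsf1 drives most chaperone genes. Small heat shock proteins such as Hsp26 and Hsp42 bind unfolding proteins and keep them in a form from which the disaggregase Hsp104 and its Hsp70 partners can recover them. Glucose limitation relieves glucose repression and lowers protein kinase A activity, and many genes of the programme are known to be active in such cultures.

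Signals are linear probe set intensities as the submitters deposited them. The arrays do not share a scale, since their medians over all probe sets were 30.6, 70.9 and 52.5 for cultures 1, 2 and 3. A gene is called bright when its mean signal over the 3 cultures lay above the 90th percentile of all genes (589.6) and dim when it lay under the 30th (48.3). Brightness depends on the probes as well as on the transcript, so it does not order genes by abundance. Sense-strand controls, which have no labelled target, reached 26.3.

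Of the 9 stress protein genes, 5 were bright and none was dim, where by the definition of the limits 10% of all genes are bright and 30% are dim. The bright genes were HSP12, DDR2, HSP26, DDR48 and YGP1, and HSP12 and DDR2 were also above the 99th percentile, as were 1.01% of all genes. SPI1, HSP42 and GRE3 lay between the limits. GAD1 lay just above the lower one.

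Among the heat shock proteins, HSP12 encodes a small hydrophilic protein that associates with the plasma membrane and stabilises it under stress. HSP12 read 3623, 5209 and 4644 in cultures 1, 2 and 3, a mean of 4492 ± 804 (SD, n = 3), at percentile 99.8 of all genes. HSP26, an alpha-crystallin type chaperone that assembles into large oligomers and is activated by heat, read 2080.1, 3305 and 2589 in cultures 1, 2 and 3, a mean of 2658 ± 615 at percentile 98.9. Both genes were lowest in culture 1 and highest in culture 2, the order of the array medians. HSP42, the other alpha-crystallin type chaperone, which is active without heat and sorts misfolded proteins into aggregates, read 356, 526 and 628, a mean of 503 ± 138 at percentile 88.3. For HSP42 the highest signal was in culture 3 and not in culture 2.

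The DNA damage responsive genes DDR2 and DDR48 were named for their induction by DNA-damaging agents, and both also respond to other stresses. DDR2 read 3692, 6082 and 4794.5 in cultures 1, 2 and 3, a mean of 4856 ± 1196 at percentile 99.8. The plain probe set of DDR48 read 1215, 2824 and 1770.1, a mean of 1936 ± 818 at percentile 97.9. The other DDR48 probe set, whose name carries the letter code s for probes that can match more than 1 transcript, read 479, 1151 and 714, a mean of 781 ± 341. As deposited, the DDR48 probe sets placed the cultures in the same order and differed in brightness. Their log2 ranges over the cultures, with arrays at a common median, were both 0.29. On that scale the plain probe set was highest in culture 1 and the other in culture 2.

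SPI1 and YGP1 encode proteins of the cell surface. SPI1, a cell wall protein anchored by glycosylphosphatidylinositol and known for protection against weak acids, read 270.0 in culture 1, 724 in culture 2 and 546 in culture 3, a mean of 514 ± 229 at percentile 88.6. YGP1, a secreted glycoprotein known for its induction when nutrients run out, read 830.1, 1827 and 1316, a mean of 1324 ± 498 at percentile 95.9. Both followed the order of the array medians.

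GAD1 and GRE3 encode enzymes. GAD1, the glutamate decarboxylase that makes gamma-aminobutyrate (GABA), read 41.1 in culture 1, 43.6 in culture 2 and 69.9 in culture 3, a mean of 51.5 ± 15.99 at percentile 31.9. Its signal in culture 2 was close to that in culture 1, although most genes read higher in culture 2. GRE3, an aldose reductase that uses NADPH and acts on xylose and methylglyoxal, read 165, 378 and 206, a mean of 249.8 ± 113 at percentile 76.6.

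**Figure D1:**
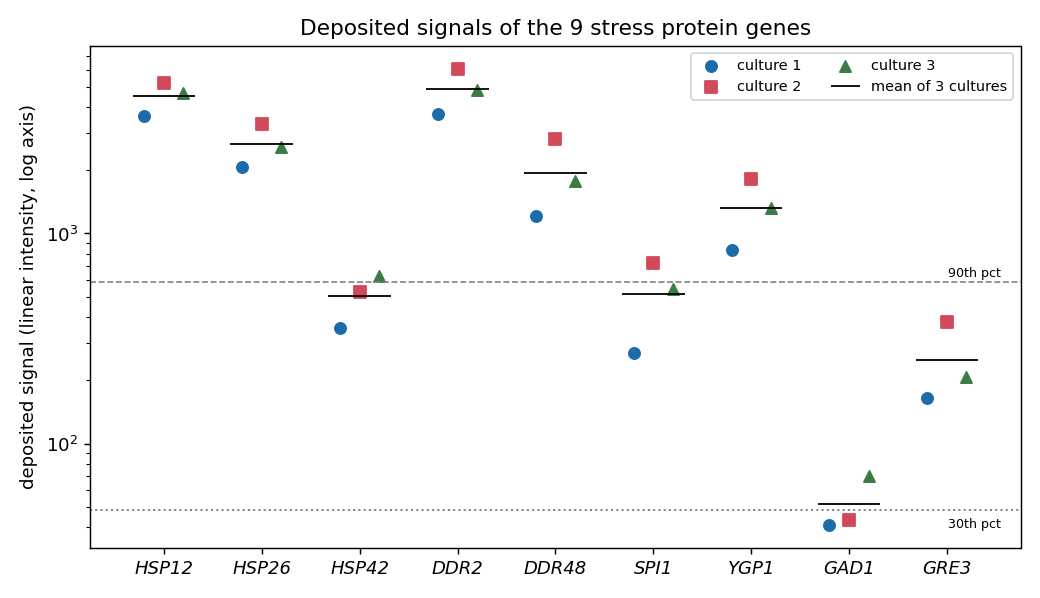
Deposited signals (linear intensity, log axis) of the 9 genes in cultures 1, 2 and 3, with a bar at the mean and lines at the 90th (589.6) and 30th (48.3) percentiles of mean signal over all genes. All 9 genes were lowest in culture 1, and 7 were highest in culture 2, the exceptions being HSP42 and GAD1, which were highest in culture 3. The array median was also lowest in culture 1 and highest in culture 2, and no share of all genes was taken for these counts.

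All 9 genes had their lowest deposited signal in culture 1, which also had the lowest array median, so each SD above contains an array-wide difference. No share of all genes was taken for this count. The median gene that was not dim read 2.31-fold higher in culture 2 than in culture 1 and 1.74-fold higher in culture 3 than in culture 1. This array-wide ratio depended on brightness. Culture 2 over culture 1 was 2.33-fold for the median gene between the 80th and 90th percentiles, 2.25-fold between the 90th and 95th, 2.05-fold between the 95th and 99th and 1.73-fold for the 57 genes above the 99th. Culture 3 over culture 1 was 1.76-fold, 1.69-fold, 1.499-fold and 1.33-fold in the same classes.

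Against these ratios the 9 genes fell on either side. From culture 1 to culture 2 the deposited signal was 1.44-fold higher for HSP12, 1.65-fold for DDR2 and 1.59-fold for HSP26. The median was 1.73-fold in the class of HSP12 and DDR2 and 2.05-fold in that of HSP26, which lies at the upper edge of its class. YGP1 (2.20-fold), GRE3 (2.30-fold) and DDR48 (2.33-fold) lay near or above the median of their class, and SPI1 stood at 2.68-fold. Of the 9 genes, HSP42 and GAD1 had the lowest ratios for their brightness, at 1.48-fold and 1.06-fold. From culture 1 to culture 3 GRE3 had the lowest ratio of the 9 for its brightness, at 1.25-fold, beside 1.77-fold for HSP42 and 1.70-fold for GAD1.

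**Figure D2:**
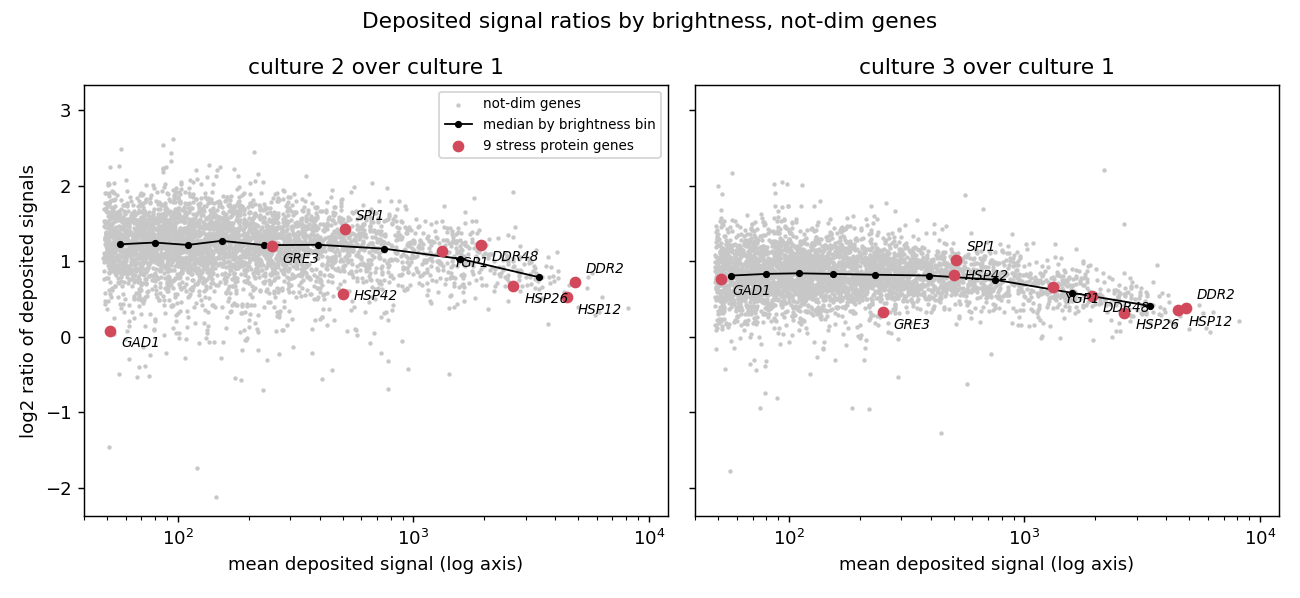
Log2 ratio of deposited signals of culture 2 over culture 1 and of culture 3 over culture 1, against mean deposited signal (log axis), for the 3959 genes that were not dim (grey), their median by class of brightness (black) and the 9 stress protein genes (red). The black line falls at high signal, where HSP12, DDR2 and HSP26 lie, and GAD1 and HSP42 lie far below it in the first panel only.

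To compare cultures, log2 signals were brought to a common median over the 3959 genes that were not dim, and each gene's deviation from its mean over the 3 cultures was taken. On this scale 1 of the 9 genes, GAD1, had a log2 range over 1, which is a 2-fold difference between its highest and lowest culture. The share was 3.59% for the genes that were not dim, 2.3% for the bright genes and 9% for all 5656 genes with no dim limit. GAD1, at percentile 31.9, lies just above the dim limit, and no share was taken for genes of its brightness alone. As deposited, 4 of the 9 had such a range, beside 75.5% of the genes that were not dim. The median log2 range of the 9 genes was 0.52 and that of the genes that were not dim was 0.35.

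GAD1 signals at a common median were 66.3, 29.8 and 63.2 in cultures 1, 2 and 3. Culture 2 was the low one on this scale, although as deposited its signal (43.6) was no lower than that of culture 1 (41.1) and lay above the sense-strand controls. The deviations of GAD1 were 0.41, -0.74 and 0.34 and its log2 range was 1.15, a 2.22-fold difference. The SD of its log2 signal, 0.65, was at percentile 98.1 among genes that were not dim. The range was 1.16 after quantile normalization and 1.17 after cyclic loess, and in each of these settings GAD1 was the 1 gene of the 9 with a range over 1, beside 3.49% of the genes that were not dim. GAD1 no longer counted among genes that were not dim when culture 1 or culture 3 was left out, and without culture 2 its log2 range was 0.07.

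HSP42 had the same order of cultures as GAD1 and a smaller range. Its signals at a common median were 574, 361 and 568, so cultures 1 and 3 were close and culture 2 was low. Its deviations were 0.23, -0.44 and 0.21, and its log2 range of 0.67 changed little after quantile normalization (0.63) or cyclic loess (0.67). Without culture 2 it was 0.01.

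HSP12, HSP26 and DDR2 were highest in culture 1 at a common median. HSP12 then read 5846, 3569 and 4201 in cultures 1, 2 and 3, with deviations of 0.40, -0.32 and -0.08. HSP26 read 3356, 2264 and 2342, with deviations of 0.36, -0.21 and -0.16, and DDR2 read 5956, 4167 and 4337, with deviations of 0.32, -0.19 and -0.13. The median deviation of the 57 genes above the 99th percentile was 0.30, -0.18 and -0.14 in cultures 1, 2 and 3, and 56 of these 57 genes were highest in culture 1. The deviations of DDR2 lay close to these medians, and those of HSP12 in cultures 1 and 2 were larger. For the 226 genes between the 95th and 99th percentiles, the class of HSP26, the medians were 0.15, -0.06 and -0.09, and the deviations of HSP26 were larger in each culture. HSP26, at percentile 98.9, lies at the upper edge of this class, and its deviations were closer to the medians of the 57 genes above. The log2 range of HSP12 was 0.71 at a common median, 0.21 after quantile normalization and 0.31 after cyclic loess. That of HSP26 was 0.57, 0.26 and 0.25, and that of DDR2 was 0.52, 0.09 and 0.10, so the spread of these genes between cultures depended on how the bright end of the arrays was scaled. Without culture 1 the log2 ranges at a common median were 0.24 for HSP12, 0.05 for HSP26 and 0.06 for DDR2.

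GRE3 and DDR48 were lowest in culture 3. GRE3 read 266, 259 and 187 at a common median, with deviations of 0.18, 0.15 and -0.33. Its log2 range of 0.51 was also 0.51 after quantile normalization and after cyclic loess. DDR48 read 1959.8, 1935 and 1601, with deviations of 0.10, 0.09 and -0.19 and a log2 range of 0.29. Cultures 1 and 2 were close for both genes at a common median, with log2 ranges of 0.04 and 0.02 without culture 3. For DDR48 this depended on the scaling, and culture 2 was highest after quantile normalization and after cyclic loess. The DDR48 deviations in cultures 1, 2 and 3 were then -0.04, 0.15 and -0.11, and -0.07, 0.17 and -0.10.

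At a common median SPI1 and YGP1 had the smallest ranges of the 9 genes. SPI1 read 436, 496 and 494 at a common median, a log2 range of 0.19, and on this scale was the gene among the 9 that was lowest in culture 1. YGP1 was also lowest there after quantile normalization and after cyclic loess, and DDR2 after quantile normalization. The range of SPI1 was 0.25 after quantile normalization and 0.23 after cyclic loess. DDR2 had a smaller range in both settings, and HSP12 (0.21) had a smaller one after quantile normalization. As deposited the range of SPI1 was 1.42, the widest of the 9. YGP1 read 1339, 1252 and 1191, a log2 range of 0.17. Without culture 1 these ranges were 0.01 and 0.07, and without culture 3 that of YGP1 was 0.10. The SD of log2 signal was 0.11 for SPI1 and 0.09 for YGP1, at percentiles 21.7 and 14.9 of the genes that were not dim.

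**Figure D3:**
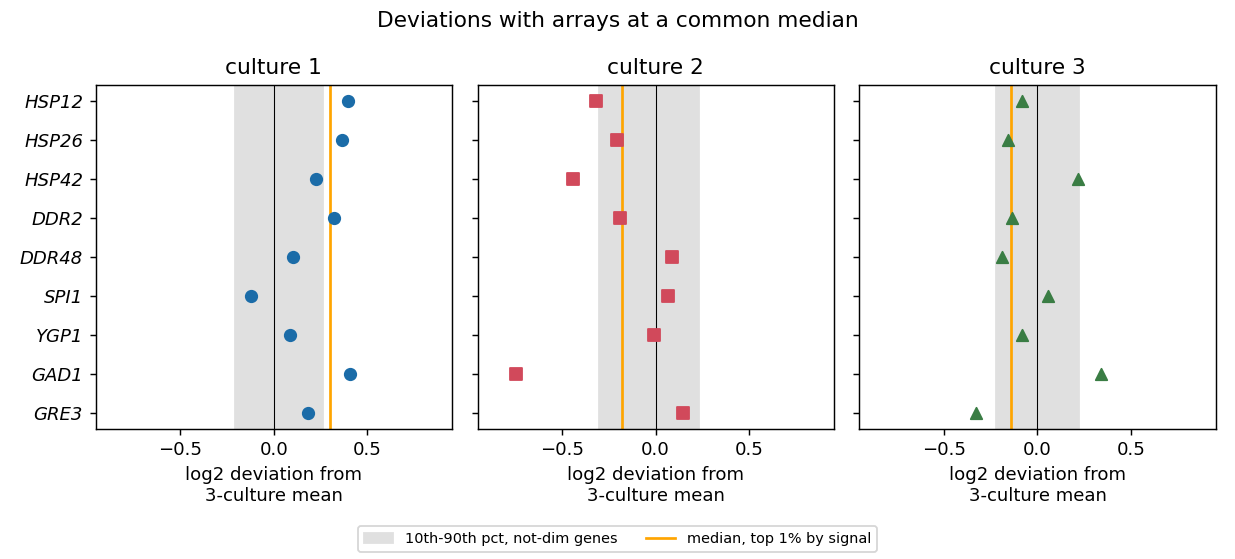
Log2 deviation of each of the 9 genes from its mean over the 3 cultures, with arrays at a common median, in 1 panel per culture. The grey band spans the 10th to 90th percentile of genes that were not dim, and the orange line is the median of the 57 genes above the 99th percentile of signal. GAD1 and HSP42 lie furthest below 0 in culture 2 (-0.74 and -0.44) and GRE3 in culture 3 (-0.33).

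Taken by culture, the median deviation of the 9 genes was 0.23, -0.19 and -0.08 in cultures 1, 2 and 3, beside 0.03, 0.00 and -0.01 for the genes that were not dim and 0.13, -0.05 and -0.06 for the bright genes. At a common median 8 of the 9 genes were highest in culture 1, beside 37% of the genes that were not dim and 61% of the bright genes. DDR48 is among the 8 by its plain probe set, and its other probe set was highest in culture 2. As deposited all 9 were lowest in culture 1, and no share of all genes was taken for that count. After cyclic loess 5 of the 9 were highest in culture 1, beside 32% of the genes that were not dim, and after quantile normalization 2 were, beside 28.6%, with HSP12 tied between cultures 1 and 3. At a common median the lowest culture was culture 1 for 1 of the 9, culture 2 for 5 and culture 3 for 3, beside 28.9%, 36.9% and 34.2% of the genes that were not dim. Without HSP12, DDR2 and HSP26 the median deviation in culture 2 was 0.03, and after quantile normalization of all 9 genes it was 0.05, so the sign of that median depended on the scaling and on these genes. The median in culture 1 was 0.07 after quantile normalization and 0.12 after cyclic loess, and that in culture 3 was -0.01 after quantile normalization, 0.01 after cyclic loess and 0.06 as deposited. Without culture 1 the median deviation was -0.01 in culture 2 and 0.01 in culture 3, and without culture 2 it was 0.15 in culture 1 and -0.15 in culture 3.

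**Figure D4:**
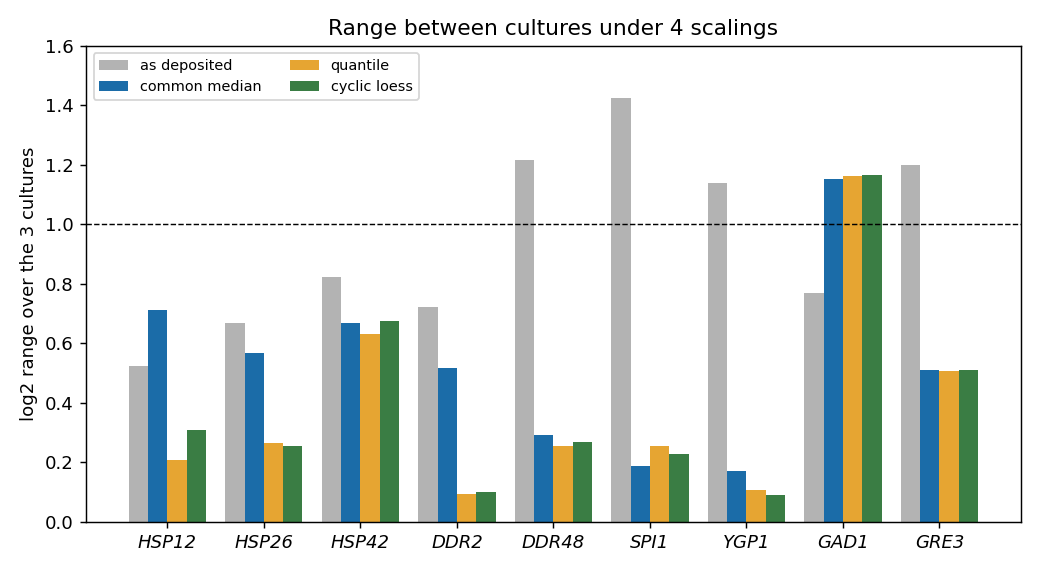
Log2 range over the 3 cultures for each of the 9 genes as deposited, at a common median, after quantile normalization and after cyclic loess, with a dashed line at 1 (2-fold). GAD1 is above the line under all scalings except as deposited (0.77), HSP42 and GRE3 change little between the last 3 scalings, and the bars of HSP12, HSP26 and DDR2 shorten after quantile normalization and cyclic loess.

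Profiles over 3 cultures do not single out a gene. The root mean square difference between the deviations of DDR2 and HSP26 was 0.03, the smallest of any pair among the 9, beside 0.08 for HSP12 and HSP26 and 0.65 for GAD1 and GRE3, the largest. Among genes outside the 9, the profiles nearest to HSP12 were those of MRX15, AHC1 and FIP1, with FIP1 the farthest at 0.011, and 111 of 3950 genes (2.81%) lay within 0.1 of it. The profiles nearest to GAD1 were those of ASF1, YCR051W and MGR1, with differences of 0.01, 0.02 and 0.03, and 28 genes (0.71%) lay within 0.1 of it.

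Relatives and partners of the 9 genes were read on the same scale. HOR7, a paralogue of DDR2, read 2754, 4362 and 3458 as deposited and deviated by 0.36, -0.21 and -0.15 in cultures 1, 2 and 3, values near those of DDR2 and of the brightest genes. SED1, a cell wall protein related to SPI1, read 3326, 3761 and 4105, with deviations of 0.53, -0.53 and 0.00 and a log2 range of 1.06, which was 0.58 after quantile normalization and 0.69 after cyclic loess. SPI1 and SED1 therefore differed in their order of cultures at a common median, SPI1 being lowest in culture 1 and SED1 highest there.

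SPS100, a spore wall protein related to YGP1, read 310.3, 345 and 214, with deviations of 0.82, -0.26 and -0.55. Its log2 range of 1.37 was 1.33 after quantile normalization, against the 0.17 of YGP1 at a common median. HSP104, the disaggregase, was bright at 420.0, 847 and 659, with a log2 range of 0.22. The aldo-keto reductases GCY1 (382, 1019 and 647) and YPR1 (131, 308 and 237), relatives of GRE3, had log2 ranges of 0.26 and 0.02 and deviations of -0.11 and 0.01 in culture 3, against -0.33 for GRE3.

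GAD1 feeds the GABA shunt, in which the transaminase UGA1 and the dehydrogenase UGA2 turn GABA into succinate. UGA1 read 68.2, 136 and 124, and its deviation in culture 2 was -0.17. UGA2 was dim at 23.8, 64.8 and 46.1, as was the GABA permease UGA4 at 6.64, 20.6 and 11.3, under the sense-strand controls. UGA3, the activator of the GABA genes, read 116, 226 and 231, with a deviation of -0.24 in culture 2. Over all 10 relatives and partners, 4 were bright and 2 were dim, beside 10% and 30% of all genes. Of the 8 that were not dim, 2 had a log2 range over 1, SED1 and SPS100, beside 3.59% of all genes that were not dim.

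Of 12 regulators of the general stress response none was bright and 2 were dim, beside 10% and 30% of all genes. A log2 range over 1 was found for 1 of the other 10, beside 3.59% of the genes that were not dim. Mean signals of the 12 regulators ran from 24.1 for the transcription factor GIS1 to 201 for the kinase YAK1. MSN2 read 89.9, 255 and 201 and MSN4 read 34.8, 96.9 and 52.6, with log2 ranges of 0.33 and 0.48. The widest was XBP1, a stress-induced repressor, at 69.6, 72.0 and 153, with deviations of 0.29, -0.89 and 0.60 and a log2 range of 1.49. HSF1 (0.27, -0.55 and 0.28) and the zinc finger gene USV1 (0.15, -0.46 and 0.31) had the same order of deviations as XBP1, and both were picked after their values were seen.

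Of 30 other general stress genes 15 were bright and 2 were dim, beside 10% and 30% of all genes. A log2 range over 1 was found for 3 of the other 28, beside 3.59% of the genes that were not dim. HOR7 had the highest mean signal of this list and the cytosolic catalase CTT1 the lowest, at 18.2, 35.1 and 34.8. The widest was the transketolase TKL2, at 97.2, 139 and 258, with deviations of 0.05, -0.67 and 0.62, and the others were MOH1 (log2 range 1.21) and PHM7 (1.03). MOH1 went the other way from GAD1, with deviations of -0.51, 0.69 and -0.18. The median deviation of the list was 0.14, -0.15 and -0.05 in cultures 1, 2 and 3, beside 0.13, -0.05 and -0.06 for the bright genes. Of the 28 genes, 19 were highest in culture 1, beside 37% of the genes that were not dim and 61% of the bright genes.

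**Figure D5:**
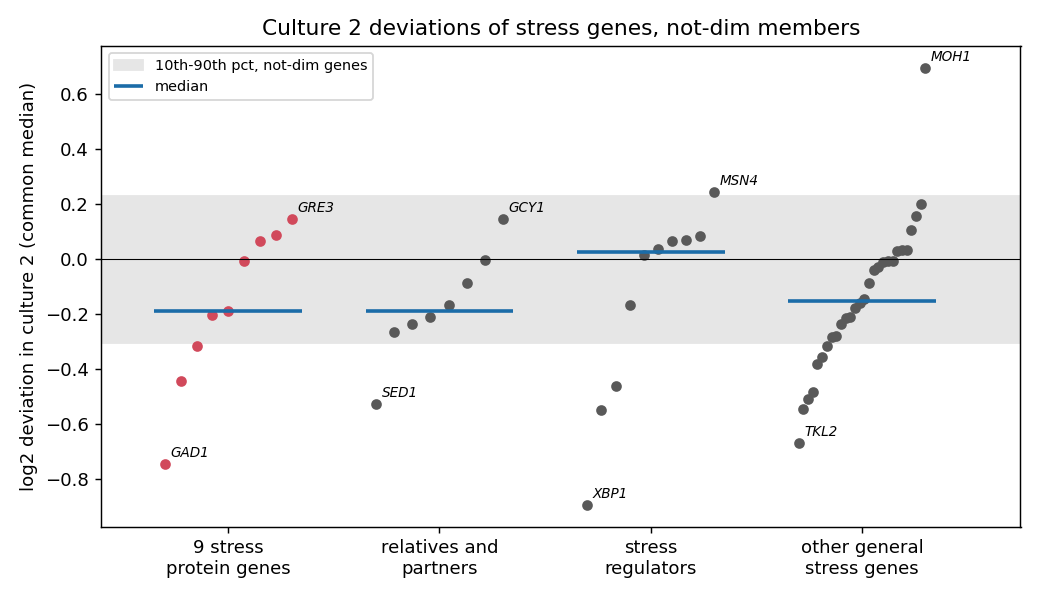
Log2 deviation in culture 2, with arrays at a common median, of the 9 stress protein genes, 8 relatives and partners, 10 regulators and 28 other general stress genes that were not dim, each sorted, with the median of each list as a blue bar. HSP104 and HOR7 belong to 2 lists. The grey band spans the 10th to 90th percentile of genes that were not dim, and XBP1 (-0.89), GAD1 (-0.74) and TKL2 (-0.67) lie lowest.

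Genes next to the 9 on the chromosomes were read in the order given by the RefSeq gene table, and no annotated gene of that table overlapped any of the 9. The measured neighbours of DDR2 were AIM39 and SPE2, whose deviations in culture 2 were 0.16 and 0.21, against -0.19 for DDR2. HSP12 lies beside MDJ1, a mitochondrial cochaperone of the Hsp40 family, with deviations of 0.19, -0.34 and 0.14, and IES1, with a log2 range of 0.04. The measured genes on either side of GAD1, YMR247W-A and GTO3, were dim. SUP35, beside HSP42, had a log2 range of 0.17 with a deviation of -0.02 in culture 2, against -0.44 for HSP42. The measured genes beside HSP26, YBR071W and RDH54, deviated by 0.14 and 0.20 in culture 1 and by -0.19 and -0.07 in culture 2. HSP26 had the same signs, at 0.36 and -0.21. Neighbours of SPI1, YGP1, GRE3 and DDR48 are not listed here.

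Markers of sporulating and of stationary-phase cells were read as checks on the state of the cultures. All 8 sporulation genes of the list were dim, beside 30% of all genes. Their mean signals ran from 1.19 for SPS2 to 16.5 for the kinase SPS1, all under the sense-strand controls. The spore wall gene SPS100, read above as a relative of YGP1, was not in this list and was not dim, at percentile 79.9. Of 5 genes known from stationary phase, 1 was bright, SPG4 at 2350.5, 4286 and 2989.9, and none was dim, beside 10% and 30% of all genes. SNO1 had the lowest mean signal of these and the widest log2 range, 0.56, reading 42.8, 86.1 and 51.9. The 5 had median deviations of 0.14, 0.02 and -0.09 in cultures 1, 2 and 3, and their part in the values of the 9 genes was not tested.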

How the data were processed

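Total RNA of 3 chemostat cultures was labelled with biotin and each culture was put on its own Affymetrix array, per the labels' protocols. The deposited values are linear intensities per probe set. Per the submitters' processing notes GCOS was used, and the sources used here do not say how probes were summarised, background-corrected or scaled. Of 9335 probe sets 60 were controls, 6504 had 1 gene in the platform annotation, 328 had several and 2443 had none. All 6504 were found by gene ID in a RefSeq table of assembly R64, used for symbols, gene order and overlaps between genes, with no coordinates printed. A gene with several probe sets was represented by the one without a letter code, or else by the brighter.

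Signals under 1 were set to 1 before log2. Genes whose mean signal was under the 30th percentile counted as dim, and arrays were brought to a common median over the other 3959 genes. Alternatives were the deposited scale, quantile normalization and cyclic loess (limma 3.58.1, R 4.3.3), hybridization controls, log2(signal + 16), other dim limits, the mean over probe sets and leaving out each culture. The range and deviation steps (Python 3.11.15, numpy 2.4.6, pandas 2.3.3) were tested on simulated data. The simulated arrays differed by a constant shift at every brightness, so that test does not cover the dependence on brightness described above. The genes and lists were chosen with earlier results of these data known. Named are the 9 genes, all relatives and partners, of each other list the genes of highest and lowest mean signal and of widest range, and the 3 profiles nearest to HSP12 and GAD1. Other genes named (MSN2, MSN4, HSF1, USV1, MOH1, PHM7 and genes adjacent on a chromosome) fall outside this rule. The sources used here gave no table of promoters or proteins, so no sequence is shown.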

Additional observations from a re-analysis of the deposited data

How the results depend on the processing

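The number of the 9 genes with a log2 range over 1 was 1 at a common median, after quantile normalization, after cyclic loess and with log2(signal + 16). The share of the genes that were not dim was 3.59%, 3.49%, 3.49% and 2.48% in these settings. The number was also 1 with no dim limit, beside 9% of all genes, and with the mean over probe sets, beside 3.86% of the genes that were not dim. In a setting added after the data were seen, with sense-strand controls (26.3) as the floor, it was 1 too, beside 3.46%. It was 4 as deposited, beside 75.5% of the genes that were not dim, and 3 with arrays scaled to 9 hybridization controls, beside 57.6%, settings in which the array-wide shift remains, the median of genes that were not dim lying at -0.66, 0.55 and 0.13 in cultures 1, 2 and 3 as deposited and at -0.60, 0.23 and 0.39 with the controls. It was 0 with dim set below the 50th percentile, since GAD1 is then dim, beside 3.25% of the genes that were not dim at that limit. Without each culture in turn it was 0, GAD1 being dim without culture 1 or 3. The share of the 3959 genes was 1.87%, 0.758% and 2.55% without culture 1, 2 and 3. Those 3959 genes were not dim by their mean over the 3 cultures and include GAD1. The counts without a culture and these shares therefore rest on different sets of genes. The median deviation of the 9 genes was -0.46 in culture 1 and 0.35 in culture 2 as deposited, -0.40, 0.039 and 0.32 in cultures 1, 2 and 3 with the controls, and 0.050 in culture 2 after quantile normalization. Without HSP12, DDR2 and HSP26, a setting added after the data were seen, it was 0.028 in culture 2, and the cause of these changes was not tested. In the other settings it moved by less than the SD of 0.22 between the 3 culture medians, which still let the culture 3 median turn from -0.08 to 0.01 after cyclic loess and to 0.06 as deposited. The number of bright genes among the 9 was 8 with the limit at the 75th percentile and 5 to 6 without each culture. Of 96 ranges of single genes under an alternative, 21 moved by more than the gene's SD. No paired analysis was possible because there is only 1 group. GAD1 lies just above the dim limit, and the 3 arrays limit every spread.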
